A study of Mus musculus with 12 samples.

Results

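Keratins Krt7, Krt8, Krt14, Krt18 and Krt19, the epithelial keratins used to mark luminal and basal mammary cells, are described here by name, 5 genes of 18278 listed for every library. They were chosen as the simple-epithelial keratins together with the basal keratin Krt14, by name and not by a threshold on their values. Earlier results of these data were known when they were chosen. Keratins are the intermediate filament proteins of epithelial cells, and each filament is built from pairs of a type I and a type II chain. Krt8 (type II) with Krt18 (type I) forms the filament of simple epithelia and of luminal mammary cells, where Krt7 (type II) and Krt19 (type I) are often found beside it. Krt14 (type I) is the keratin of basal and myoepithelial cells, where it pairs with Krt5. That gene is not among the keratins listed for these libraries, so it has no values here.

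RNA was sequenced from tumourspheres, the floating colonies that LM1 and LM9 cells form when seeded at 10000 cells per mL and kept for 6 days on low-attachment plates, in medium with 20 ng/mL EGF and 20 ng/mL basic FGF. LM1 and LM9 are mouse mammary cancer cell lines, each grown out of a lung metastasis of PIK3CA-mutant mammary cells that had undergone piggyBac transposon mutagenesis. There were 4 groups of 3 libraries, 1 for each parental line and 1 for the Nfib KO line made from each, in which a guide RNA was aimed at Nfib, the gene of a transcription factor of the nuclear factor I family. All groups shared the PIK3CA mutation and the transposon history, and each KO line was a pool of CRISPR-edited single-cell clones, fewer for LM9 than for LM1. The labels do not say that replicates were separate cultures, so every p below measures the spread between these libraries, which may be technical. Tumourspheres were read in bulk, so fewer cells expressing a gene and less RNA per cell cannot be told apart.

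Library totals lay between 29249075 and 37162594 counts, and 3 counts in a library, the floor used below, stood for 0.0730 to 0.121 CPM, the count scaled to the library total after TMM adjustment. Nfib itself, the targeted gene, had 196, 217 and 241 CPM in LM1, where its KO-labelled libraries had 239, 238 and 228. LM9 had 210, 120 and 133 CPM, and its KO-labelled libraries had 227, 247 and 246. The log2 difference was 0.11 in the LM1 pair (limma-voom adjusted p = 0.533) and 0.68 in the LM9 pair (adjusted p = 0.00260, or 0.93 without LM9 replicate 1), so Nfib mRNA was not lower under either KO label, and counts over the whole gene do not show a frameshift. The chi-square per degree of freedom over genes with at least 20 reads in a pair of libraries, which is near 1 where counting noise alone separates them, was 804 to 948 between parental and KO-labelled libraries. It was 1.62 to 5.65 between the LM1 and LM9 KO labels, against 1.44 to 3.06 and 1.64 to 4.17 within them, so these counts do not show that the libraries under the 2 KO labels came from separate lines. LM9 replicate 1 stood apart from its group: it lay 145 and 164 from the other LM9 libraries and 2.24 to 5.29 from the LM1 libraries, which lay 5.34 to 7.72 from each other. By its counts it thus stood with LM1 and against its label, and whether it is an LM1 library cannot be settled here. The LM9 means, SDs and tests include it, and many results below are also given without it.

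Krt8 and Krt18 lie side by side on chromosome 15 of mm10, 23697 bases apart and pointing away from each other, although Krt18 is a type I gene inside the type II cluster. Krt8 (ENSMUSG00000049382) spans chr15:101996698-102004482 on the minus strand and Krt18 (ENSMUSG00000023043) chr15:102028180-102032027 on the plus strand. Krt7 (ENSMUSG00000023039) lies 566384 bases before Krt8, at chr15:101411043-101430313 on the plus strand. Krt19 (ENSMUSG00000020911), at chr11:100140810-100148665, and Krt14 (ENSMUSG00000045545), at chr11:100203162-100207548, are 54496 bases apart on the minus strand of chromosome 11, in the type I cluster. RefSeq windows of 300 bases, 250 before to 50 after a start (GRCm38.p6, the assembly of mm10), were found for 4 of the 5 genes. The stretches of 3 of these windows that overlap no exon of a coding transcript are printed here, 5′ to 3′ along each gene, because the 3 genes fell together in the KO-labelled libraries. They are chr15:102004483-102004592 for Krt8, chr15:102027966-102028179 for Krt18 and chr15:101412153-101412401 for Krt7. Capitals mark matches, on either strand, to the motifs named next.
Krt8: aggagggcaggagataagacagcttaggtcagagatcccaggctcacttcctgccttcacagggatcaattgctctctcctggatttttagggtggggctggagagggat
Krt18: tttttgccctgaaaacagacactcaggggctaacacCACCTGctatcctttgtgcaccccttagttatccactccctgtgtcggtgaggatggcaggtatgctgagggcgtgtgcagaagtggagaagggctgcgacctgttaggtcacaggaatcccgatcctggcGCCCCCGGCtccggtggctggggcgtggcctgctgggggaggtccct
Krt7: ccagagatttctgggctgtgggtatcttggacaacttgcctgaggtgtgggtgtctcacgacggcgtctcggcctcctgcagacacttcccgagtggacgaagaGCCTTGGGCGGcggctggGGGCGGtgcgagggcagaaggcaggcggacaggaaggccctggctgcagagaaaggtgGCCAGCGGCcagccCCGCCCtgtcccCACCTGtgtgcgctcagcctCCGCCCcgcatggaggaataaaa

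The motifs searched were the palindrome of nuclear factor I and its single arm TTGGC, which lies inside the palindrome, the AP-2 motif GCCNNNGGC, the SP1 motif GGGCGG, the E-box CAGGTG that Zeb and Snail repressors bind, and TATAAA. Krt7, Krt8 and Krt18 each held 1 E-box in the 300 bases, at base 207, 140 and 37 of the window, where 20.2% of all 32851 windows held at least 1. The Krt8 match lies in an annotated exon of the gene and so is not in the printed part. Krt7 held 2 AP-2 and 4 SP1 motifs, of which the first AP-2 match (base 105) overlapped the first SP1 match (base 110), and Krt18 held 1 AP-2 motif at base 168. Of all windows, 16.6% held an AP-2 motif and 35.7% an SP1 motif. Krt8 alone of the 4 held TATAAA, in 2 overlapping matches on opposite strands at bases 248 and 250, against 13.6% of windows, and these too lie in annotated exon sequence outside the printed part. No window held the nuclear factor I palindrome, which 0.0365% of windows hold, and the single arm, held by 46.7%, was found only for Krt14, at base 286. The windows of Krt14 and Krt7 start inside introns of annotated coding transcripts of these genes, so neither is the stretch before the gene's outermost annotated start. These are matches of letters and not measured binding.

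Krt8 and Krt18 were among the more abundant mRNAs of both parental lines and were nearly absent from the KO-labelled libraries. Krt8 stood at 222, 203 and 215 CPM in LM1 and at 220, 415 and 406 CPM in LM9. The libraries labelled LM1 Nfib KO held 6, 1 and 7 Krt8 counts and those labelled LM9 Nfib KO 3, 4 and 3. Krt18 stood at 494, 460 and 485 CPM in LM1 and at 490, 757 and 723 CPM in LM9. Its counts were 0, 4 and 1 in the first KO group and 0, 1 and 0 in the second. No KO-labelled library came near any parental one for either gene, and the share of all genes that separate likewise was not counted. By level per kilobase of exon, Krt18 ranked 202 of 18268 genes in LM1 and 187 in LM9, and Krt8 ranked 650 and 502.

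The summed, scaled Krt8 counts were 1760 times higher in LM1 than in LM1 Nfib KO libraries (95% counting interval 1049 to 3220) and 4014 times higher in LM9 than in LM9 Nfib KO libraries (2182 to 8371). For Krt18 the ratios were 11097 (4755 to 34178) and 76448 (13720 to 3019610), the last resting on a single count. These intervals cover counting error only. By limma-voom, with Benjamini-Hochberg adjustment over 18176 genes, the log2 level of Krt8 fell by 10.94 in the LM1 pair (SE 0.83, adjusted p = 1.83e-07) and by 11.75 in the LM9 pair (SE 0.84, adjusted p = 1.15e-07). Krt18 fell by 13.59 (SE 0.78, adjusted p = 1.67e-08) and by 15.10 (SE 0.78, adjusted p = 6.82e-09). Both genes were under the count minimum of 10 in every KO-labelled library and were tested only through their parental levels, so a fall was the only call open to them. Fitted values this large depend on how counts of 0 are offset: leaving out LM1 Nfib KO replicate 1 or 2 moved the Krt18 value to −12.77 or −14.39, and leaving out LM1 Nfib KO replicate 2 moved that of Krt8 to −10.21, each still called.

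Krt8-ps, a processed pseudogene of Krt8 on chromosome 7, followed its parent with 1426, 1567 and 1423 counts in LM1, 1561, 2181 and 2308 in LM9 and 0 to 4 in the KO-labelled libraries. Reads shared by the pseudogene and Krt8 may have been split between them, so the absolute Krt8 level is uncertain. An annotated noncoding gene overlaps Krt8 exons on the opposite strand, as an antisense gene does for Krt7, and whether the counting used strand is not stated in the sources used here.

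**Figure D1:**
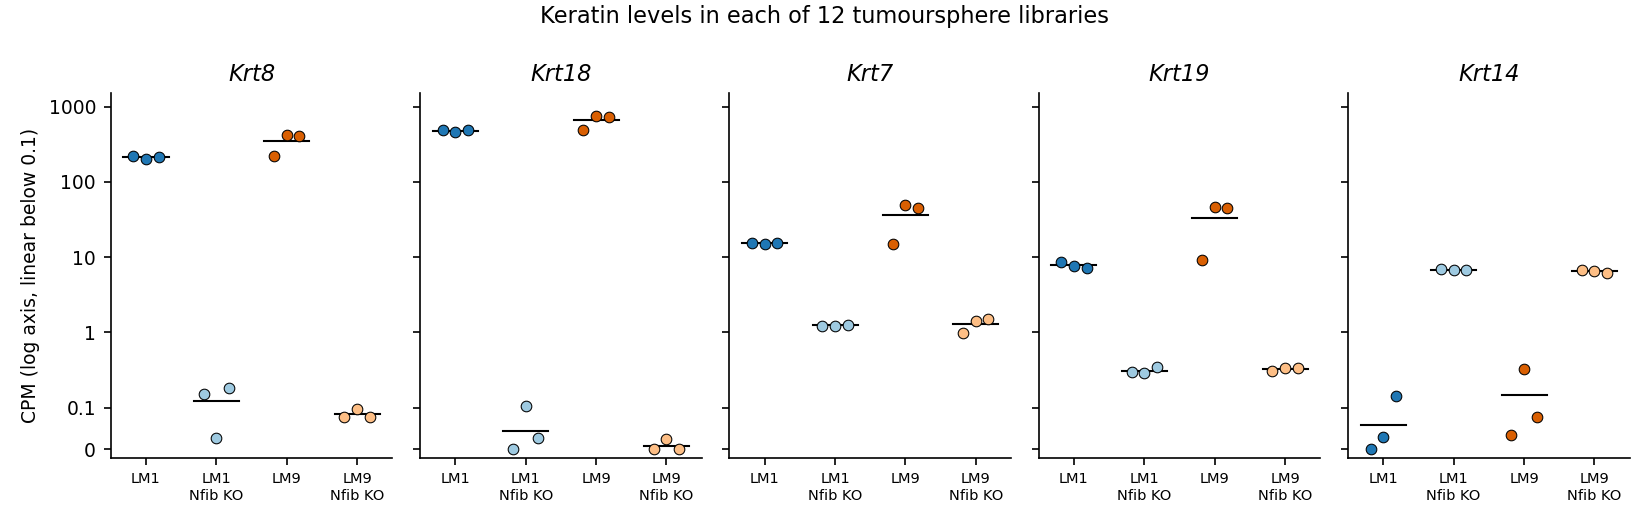
Level of each keratin in CPM (log axis, linear below 0.1 CPM) in the 12 libraries, as points in replicate order within each group, with a bar at the group mean. Krt8, Krt18, Krt7 and Krt19 were lower and Krt14 was higher in the KO-labelled groups, where 81.2% and 82.3% of all genes were called. LM9 replicate 1, the left point of its group, sat near the LM1 points.

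Krt7 and Krt19 also fell in both pairs, from lower levels and by less. Krt7 was measured at 15.3, 15.02 and 15.3 CPM in LM1 and at 15.2, 50.1 and 44.5 CPM in LM9. In the libraries labelled LM1 Nfib KO it was 1.23, 1.23 and 1.27 CPM, and in those labelled LM9 Nfib KO 0.985, 1.41 and 1.51 CPM. Krt19 was measured at 8.54, 7.69 and 7.26 CPM in LM1 and at 9.24, 46.0 and 45.3 CPM in LM9. Its KO-labelled libraries held 0.302, 0.287 and 0.343 CPM for LM1 and 0.311, 0.341 and 0.338 CPM for LM9, from 11 to 14 counts each. Unlike Krt8 and Krt18, both genes kept counts above the floor in every KO-labelled library. For neither gene did the parental libraries overlap the KO-labelled ones. The share of all genes without overlap was not counted, but 81.2% and 82.3% of genes were called in the LM1 and LM9 pairs.

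The log2 difference of Krt7 was −3.60 in the LM1 pair (SE 0.64, limma-voom adjusted p = 2.61e-04) and −4.62 in the LM9 pair (SE 0.61, adjusted p = 2.43e-05). Krt19 differed by −4.60 in the LM1 pair (SE 1.22, limma-voom adjusted p = 0.00439) and by −6.26 in the LM9 pair (SE 1.16, adjusted p = 3.62e-04). Without LM9 replicate 1 the LM9 values were −5.19 for Krt7 and −7.06 for Krt19. In counts, Krt7 was 12.2 times higher (95% counting interval 10.3 to 14.6) in LM1 and 27.1 times higher (23.1 to 32.1) in LM9 than in the matching KO-labelled libraries. Krt19 was 25.2 times (18.0 to 36.3) and 97.4 times (71.03 to 137) higher.

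Krt14, the basal keratin, moved the other way. It had 0, 1 and 4 counts in LM1 and 1, 8 and 2 in LM9, against 274, 259 and 254 counts under the LM1 Nfib KO label and 262, 270 and 237 under the LM9 Nfib KO label. The parental counts were at or near the floor, and the KO-labelled libraries lay between 6.16 and 6.90 CPM. Its summed, scaled counts were 120 times higher in the LM1 KO libraries (95% counting interval 51.3 to 371) and 47.3 times higher in the LM9 KO libraries (26.3 to 95.1). By limma-voom its log2 level rose by 7.06 in the LM1 pair (SE 0.62, adjusted p = 6.60e-07) and by 5.80 in the LM9 pair (SE 0.54, adjusted p = 1.21e-06). The LM1 value was 6.33 without LM1 replicate 1 and 7.90 without LM1 replicate 3, and the LM9 value was 5.16 without LM9 replicate 1 and 6.55 without LM9 replicate 2, all called.

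All 5 keratins were thus called in both KO comparisons, 4 lower and 1 higher. Most genes were called there too: 81.2% of 18176 genes in the LM1 pair (43.1% higher and 38.1% lower in the KO-labelled libraries) and 82.3% in the LM9 pair (44.3% higher and 38.0% lower). The median log2 difference of all genes was 0.08 and 0.13, and unscaled library totals would raise these medians by 0.22 and 0.35, so every difference is relative to the scaling used. Krt14 passed the filter on low counts through its KO-labelled libraries alone, and Krt8 and Krt18 through the parental ones alone, so for these 3 genes only the direction found was open, and their calls are a description. The same holds for each gene named below whose counts stayed under 10 in all parental or in all KO-labelled libraries.

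**Figure D2:**
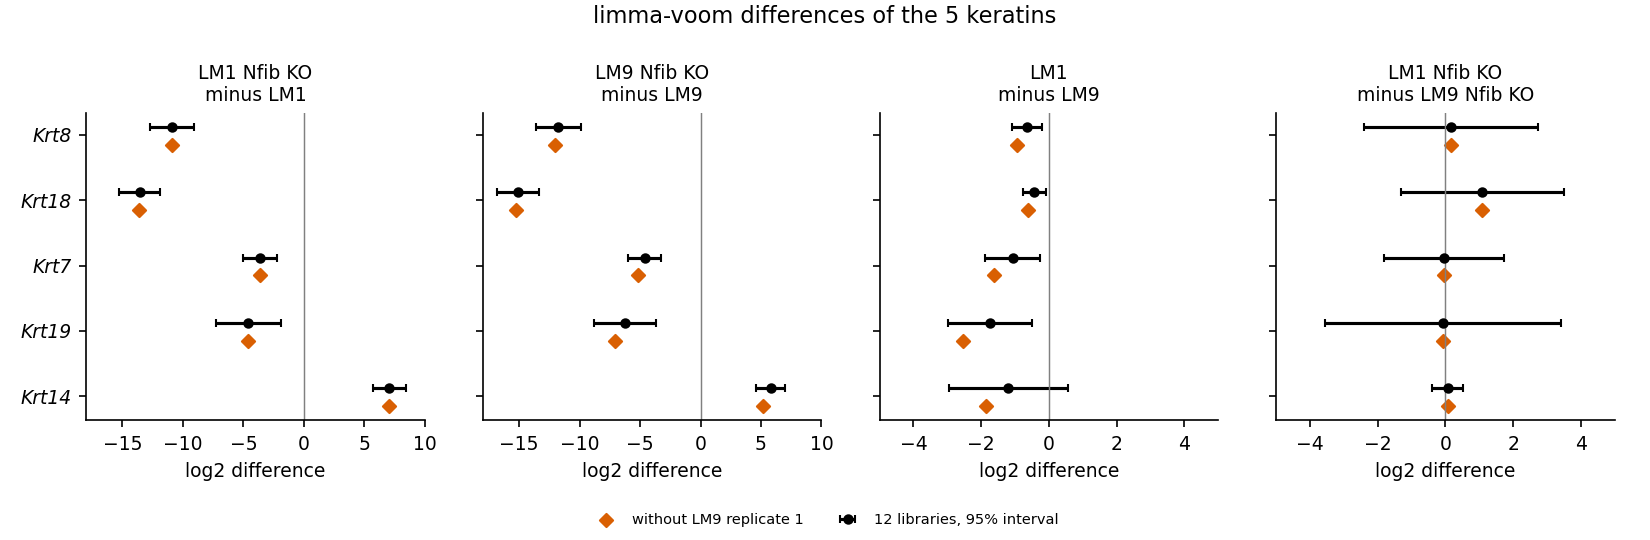
limma-voom log2 differences of the 5 keratins in 4 comparisons, with 95% intervals from all 12 libraries (circles) and the same values fitted without LM9 replicate 1 (diamonds). The KO differences run from −15.10 (Krt18, LM9 pair) to 7.06 (Krt14, LM1 pair), while all intervals between the 2 KO-labelled groups include 0.

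The parental lines themselves were compared to ask whether the 2 metastasis-derived lines carried the same keratins. With all libraries, none of the 5 was called between LM1 and LM9 by the reported limma-voom fit or edgeR and 4 were by DESeq2 (all but Krt14), which called 33.9% of all genes there. Other limma-voom settings called some of them, as given at the end. In the reported limma-voom fit 0.00550% of genes (1 of 18176) were called there, and 8661 had an unadjusted p under 0.05. The log2 differences, LM1 minus LM9, were −1.07 for Krt7 (adjusted p = 0.0563), −0.64 for Krt8 (adjusted p = 0.0543), −1.20 for Krt14 (adjusted p = 0.247), −0.43 for Krt18 (adjusted p = 0.0632) and −1.74 for Krt19 (adjusted p = 0.0543). LM9 replicate 1 was the lowest LM9 library for each of the 5 genes. It lay within the LM1 range for Krt7, Krt8, Krt14 and Krt18, and slightly above it for Krt19 (9.24 against 7.26 to 8.54 CPM).

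Without that library all 5 keratins were called lower in LM1 than in LM9, where 65.7% of 18246 genes were called (33.4% higher and 32.4% lower in LM1). The differences were then −1.63 for Krt7, −0.95 for Krt8, −1.85 for Krt14, −0.62 for Krt18 and −2.54 for Krt19. Krt19 thus differed most, with 46.0 and 45.3 CPM in the 2 remaining LM9 libraries against at most 8.54 CPM in LM1. Krt14 rested on 5 counts in LM1 and 10 in those 2 libraries.

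Between the KO-labelled groups no keratin was called by limma-voom, and 0% of genes were, with 178 at an unadjusted p under 0.05 and 0 called by edgeR or DESeq2. The narrowest interval was that of Krt14, whose log2 difference of 0.06 had a 95% interval of −0.40 to 0.52. The interval for Krt7 ran from −1.81 to 1.72 and that for Krt19 from −3.57 to 3.40, so this fit does not show that their levels were equal. The fit shares 1 estimate of the spread among all groups, and without LM9 replicate 1, which is in neither group compared, the SE went from 0.80 to 0.20 for Krt7 and from 1.58 to 0.29 for Krt19, with both still not called. With all libraries, the difference between the 2 KO effects was called for none of the 5 by the reported limma-voom fit, edgeR or DESeq2. Of all genes 0% were called by that fit, with 4495 at an unadjusted p under 0.05, 1 gene by edgeR and 78 by DESeq2. With quality weights the difference was called for Krt7 and Krt19, as given at the end. Without LM9 replicate 1, where 57.2% of genes were called (27.6% higher), it was called for Krt7 (1.59), Krt14 (1.91) and Krt19 (2.46): the falls of Krt7 and Krt19 were smaller, and the rise of Krt14 larger, in the LM1 pair. These 2 KO comparisons share no library, but the KO-labelled groups lay about as near to each other as replicates do, so the pairs are not shown to be independent.

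Because type I and type II chains pair, the ratio of type II to type I mRNA was taken within each library, per kilobase of exon. Krt8 to Krt18 was 0.329, 0.323 and 0.326 in LM1 and 0.330, 0.403 and 0.411 in LM9, and it could not be formed in KO-labelled libraries, where Krt18 was at or near 0. LM9 replicate 1 again stood with LM1. The log2 ratio differed by −0.22 between LM1 and LM9 (exact two-sided permutation p = 0.1, the smallest that 3 against 3 libraries allow). Krt7 to Krt19 was 0.473, 0.514 and 0.553 in LM1 and 0.432, 0.287 and 0.258 in LM9. The ratio was 1.07, 1.12 and 0.972 in LM1 Nfib KO libraries and 0.833, 1.09 and 1.17 in LM9 Nfib KO libraries, so every KO-labelled library lay above every parental one. Those log2 differences were 1.04 in the LM1 pair, 1.69 in the LM9 pair and 0.69 between the parental lines, each with an exact permutation p of 0.1, and 0.05 between the KO-labelled groups (exact permutation p = 0.9). Krt7 has a long exon union, and with the length of its principal transcript the mean ratios were 0.750, 0.477, 1.55 and 1.51 in LM1, LM9 and their KO libraries in turn, while the differences stayed as given.

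**Figure D3:**
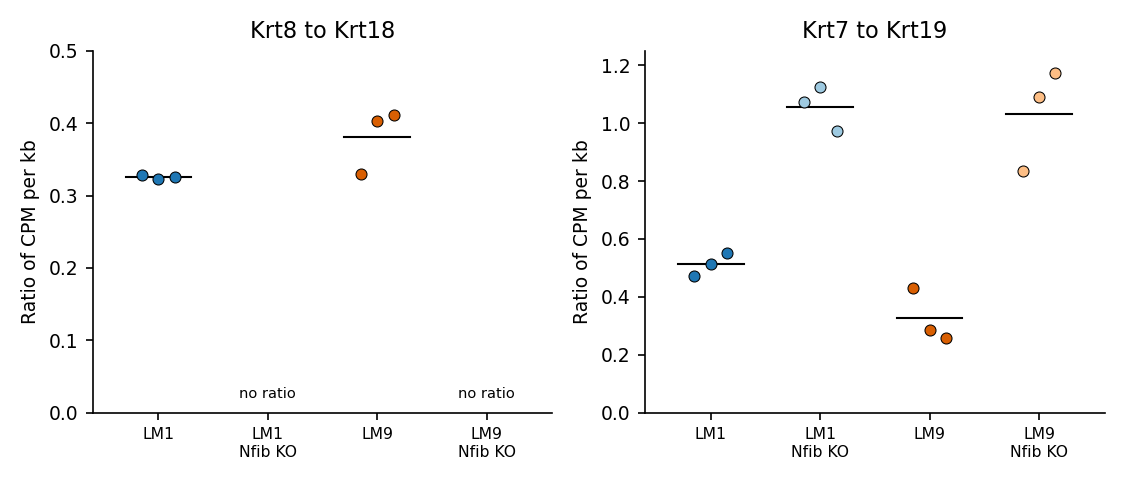
Ratio of type II to type I mRNA (CPM per kilobase of exon) for Krt8 to Krt18 and Krt7 to Krt19 in each library, with a bar at the group mean and no ratio for groups in which a gene had 3 counts or fewer in a library. Krt7 to Krt19 lay between 0.258 and 0.553 in the parental libraries and between 0.833 and 1.17 in the KO-labelled ones.

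Ordered by mean level per kilobase, the 5 keratins in LM1 ran Krt18 (334 CPM per kb ± 12.2 SD, n = 3), Krt8 (109 ± 4.90), Krt19 (4.22 ± 0.351), Krt7 (2.16 ± 0.0241) and Krt14 (0.0332 ± 0.0433), and no neighbours in that order overlapped. LM9 gave the same order, at 457 ± 101, 177 ± 56.1, 18.1 ± 11.3, 5.19 ± 2.66 and 0.0824 ± 0.0883 CPM per kb, with Krt19 and Krt7 overlapping across libraries through replicate 1. In the LM1 Nfib KO libraries Krt14 led at 3.86 ± 0.0545 CPM per kb, followed by Krt7 at 0.176 ± 0.00308 and Krt19 at 0.168 ± 0.0157, which did not differ beyond their spread on this length, and by Krt8 and Krt18 at 0.0616 ± 0.0427 and 0.0304 ± 0.0378. The LM9 Nfib KO libraries gave 3.70 ± 0.183, 0.185 ± 0.0394 and 0.178 ± 0.00877 for Krt14, Krt7 and Krt19 in turn, and Krt8 and Krt18 were at 0.0431 ± 0.00573 and 0.00564 ± 0.00977. With principal transcript lengths instead, Krt7 lay above Krt19 in every KO-labelled library, by the mean ratios of 1.55 and 1.51 given above.

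Of 53 annotated protein-coding keratin genes, 17 had rows in the files, the 5 described above and 12 others. Summed over all 17, keratin mRNA was 466, 432 and 456 CPM per kb in LM1 and 463, 777 and 747 in LM9, against 18.2 to 19.3 in the LM1 KO and 18.3 to 18.7 in the LM9 KO libraries. Krt18 and Krt8 made up 74.0% ± 0.205 and 24.1% ± 0.155 (SD, n = 3) of the sum in LM1, and 69.6% ± 3.56 and 26.4% ± 1.86 in LM9. In the KO-labelled libraries the sum was spread over many genes: Krt14 gave 20.7% ± 0.809 and 20.0% ± 1.11 in the LM1 and LM9 KO groups, Krt16 18.6% ± 1.30 and 18.8% ± 0.735, and Krt80 15.1% ± 0.946 and 14.96% ± 0.830. Type II genes held 24.5% to 24.8% of the sum in LM1, 24.8% to 28.6% in LM9 and 27.8% to 31.8% in the KO-labelled libraries. Keratins with over 3 counts numbered 8 to 10 in a parental library and 15 or 16 in a KO-labelled one.

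**Figure D4:**
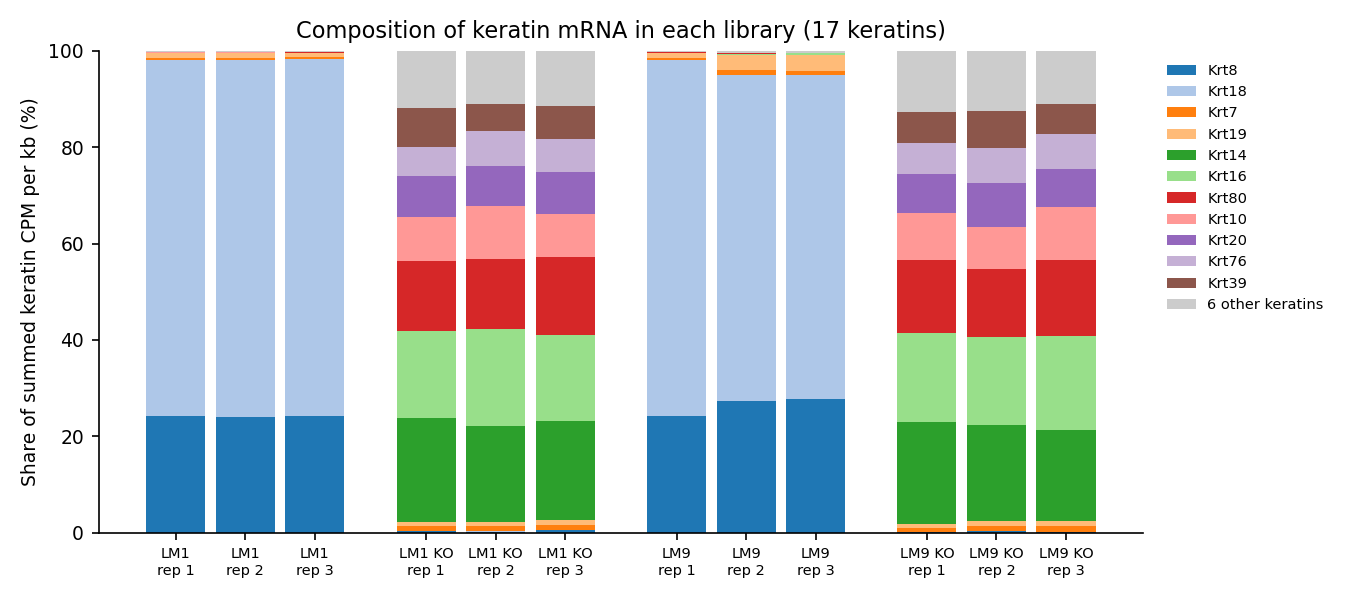
Share of each keratin in the summed CPM per kilobase of 17 keratins, one bar per library. Krt18 and Krt8 fill most of the bar in every parental library, with means of 74.0% and 24.1% in LM1, whereas in the KO-labelled libraries Krt14, Krt16 and Krt80 were the largest shares.

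Among the 12 other keratins 11 were called higher in both KO comparisons, where 43.1% and 44.3% of all genes were called higher. Krt13, a keratin of stratified mucosa, was the exception, at −1.06 in the LM1 pair (limma-voom adjusted p = 0.0569) and −1.59 in the LM9 pair (adjusted p = 0.00403), and it was called in both without LM9 replicate 1. The median log2 differences were 4.62 and 4.25, or 3.58 and 2.87 with genes absent from a parental line set to the bound that 3 counts per library give. Most of these genes passed the low-count filter through the KO-labelled libraries alone, so a rise was the only result open to them. Krt80, a type II keratin, had the highest CPM of the 12 in the KO-labelled libraries, at 18.0 ± 1.05 CPM for LM1 Nfib KO against 1.22 ± 0.191 CPM in LM1, and it rose by 3.87 (SE 0.21, limma-voom adjusted p = 1.19e-08) and, in the LM9 pair, by 4.01 (SE 0.23, adjusted p = 1.55e-08). Krt16, a keratin induced in wounded and hyperproliferative epidermis, stood at 5.43 ± 0.546 CPM in LM1 Nfib KO and 5.44 ± 0.222 CPM in LM9 Nfib KO libraries. In the parental lines it ranged from 0.398 to 0.567 CPM in LM1 and from 0.506 to 3.59 CPM in LM9, and its LM9 difference of 1.60 became 0.61 without LM9 replicate 1.

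Krt10, the suprabasal epidermal type I keratin, rose by 1.58 and 1.26 on the log2 scale, from 29 to 53 counts in parental libraries to 131 to 171 in KO-labelled ones. Krt39 and Krt6a had 0 counts in all 6 parental libraries, and Krt20, an intestinal and urothelial keratin, 0 to 2. Krt39 reached 69 to 96 counts in KO-labelled libraries and was at least 20.4-fold higher in the LM1 pair and 17.9-fold higher in the LM9 pair. Krt6a reached 47 to 56 counts, at least 13.2-fold and 11.8-fold higher. Krt20 reached 108 to 135 counts, 90.4 times those of LM1 (95% counting interval 30.7 to 440) and at least 26.1-fold higher than in LM9. Krt76 had 0 to 1 counts in LM1, 1 to 10 in LM9 and 99 to 129 in KO-labelled libraries, and its LM9 difference of 4.31 was 3.47 without LM9 replicate 1. The 4 remaining genes, Krt17, Krt32, Krt6b and Krt90, stayed under 1 CPM in all groups.

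Genes of proteins that tie keratin filaments to desmosomes and hemidesmosomes were called in both directions, as genes were in general. Of 15 listed linkers 11 were tested, and in each KO comparison 5 rose and 6 fell (5 and 5 in the LM9 pair with unscaled library totals), where 43.1% and 44.3% of all genes rose and 38.1% and 38.0% fell. The median log2 differences were −1.26 and −0.88. Ppl, the gene of periplakin, went from 144 ± 2.95 CPM in LM1 and 104 ± 36.1 in LM9 to 0 to 4 counts in KO-labelled libraries, with log2 differences of −10.67 and −11.66, and only a fall could be called. Jup, the gene of plakoglobin, fell by 3.54 and 4.12, from 194 ± 12.9 to 16.6 ± 0.307 CPM in the LM1 pair. Plec, the gene of the cytolinker plectin, rose by 3.63 and 3.47, from 148 ± 15.3 to 1824 ± 38.4 CPM in the LM1 pair. Pkp1, the gene of the suprabasal desmosomal protein plakophilin 1, had 0 to 2 counts in parental libraries and 1472 to 1568 in KO-labelled ones.

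Genes for keratin turnover and keratin-binding proteins were likewise called in shares near those of all genes (81.2% and 82.3% called). Of 10, 5 rose and 3 fell in the LM1 pair and 4 rose and 5 fell in the LM9 pair (5 and 4, then 4 and 6, without LM9 replicate 1). The medians were 0.20 and −0.19, and the second was 0.17 with unscaled library totals. Tgm2, the gene of a transglutaminase that crosslinks proteins, fell by 3.22 and 2.80 on the log2 scale, and Ywhae, a 14-3-3 gene, by 0.54 and 0.76. Ywhaz, another 14-3-3 gene, rose by 1.16 and 0.88. Fam83h, whose protein recruits casein kinase to keratin filaments, rose by 1.70 in the LM1 pair and by 3.10 in the LM9 pair, the latter 4.01 without LM9 replicate 1.

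Most intermediate filament genes tested outside the keratins rose in the KO-labelled libraries. Of 18 listed, 14 were tested, and 12 rose and 0 fell in each KO comparison, where 43.1% and 44.3% of all genes were called higher, with medians of 2.13 and 2.14 (1.97 in the LM9 pair with genes at 0 set to their bound). Prph, the gene of the neuronal filament peripherin, rose by 5.55 and 5.97, from 0.773 ± 0.298 to 34.7 ± 1.57 CPM in the LM1 pair. Nefl, the neurofilament light chain, was at 0 in all parental libraries and at 47 to 68 counts in KO-labelled ones, at least 14.8-fold and 12.6-fold higher. Nefl and Ina, both at 0 in every parental library, could pass the low-count filter only through the KO-labelled ones. Not called were Iffo2 at −0.04 and Des at −0.07 in the LM1 pair, and Vim at 0.18 and Des at 0.85 in the LM9 pair. Unscaled library totals gave 0.18 and 0.15 for the first 2, still not called, and 0.54 and 1.23 for the others, both called. Without LM9 replicate 1, 13 rose and 1, Vim, fell in the LM9 pair, at −0.08.

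The transcription factors listed for epithelial and mesenchymal states were called in both directions, as most genes were (81.2% and 82.3%), with 6 up and 9 down of 17 tested in the LM1 pair and 7 up and 9 down in the LM9 pair (7 and 9 in both without LM9 replicate 1), with medians of −1.14 and −1.17. Ehf and Elf3, epithelial factors of the Ets family, fell: Ehf from 219 ± 10.4 and 194 ± 17.8 CPM in LM1 and LM9 to 1 to 9 counts in KO-labelled libraries, and Elf3 by 6.13 and 7.07 on the log2 scale. The Grhl genes of the list went both ways. Grhl3 rose by 9.95 and 8.30, to 59.3 and 59.9 CPM in the LM1 and LM9 KO groups. Grhl1 rose by 4.31 and 3.74, and Grhl2 fell, at −2.76 and −2.67. Trp63 was −5.79 and called in the LM1 pair, where Krt14 rose. In the LM9 pair it was −1.49 and not called, with 1 to 530 counts in LM9 libraries. Zeb1, which represses epithelial genes through E-boxes, had 0 to 4 counts in parental libraries and 134 ± 2.07 and 135 ± 1.04 CPM in the LM1 and LM9 KO groups (log2 differences of 10.29 and 12.04, the second 12.73 without LM9 replicate 1), and only a rise could be called. Snai2, a Snail-family repressor of the same kind, was at 0 in all parental libraries and at 378 to 492 counts in KO-labelled ones, at least 103-fold and 96.9-fold higher. The related factors differed: Snai1 fell by 2.75 and 3.92, from 88.7 ± 9.10 to 13.1 ± 0.893 CPM in the LM1 pair, and Zeb2 was 0.01 and not called in the LM1 pair and rose by 0.48 in the LM9 pair. Whether any of these factors acted on the keratin genes was not tested.

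**Figure D5:**
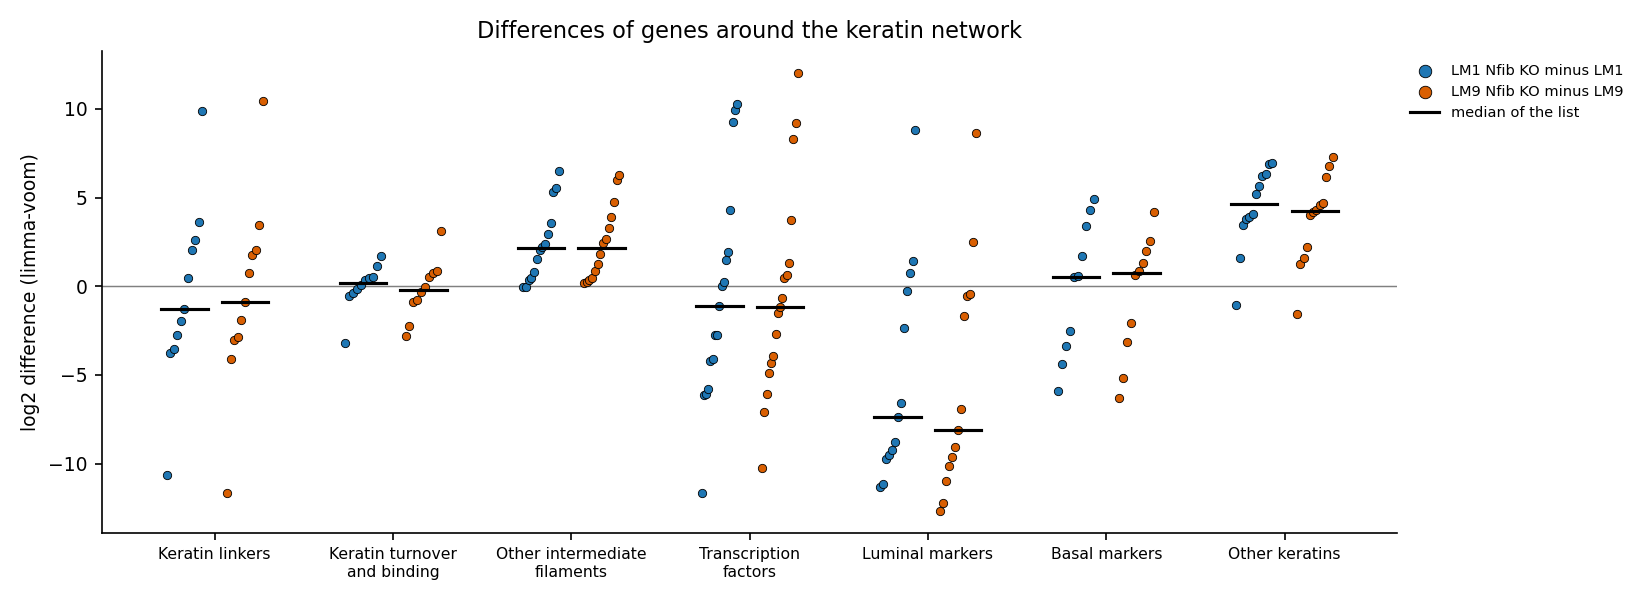
limma-voom log2 differences, KO-labelled minus parental, of the genes of 7 lists, one point per gene, with the list median as a bar, for the LM1 pair (blue) and the LM9 pair (orange). Luminal markers had medians of −7.39 and −8.09 and other keratins of 4.62 and 4.25, while linkers and transcription factors spread to both sides of 0.

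Most markers of luminal cells other than keratins fell, as Krt8 and Krt18 did, in a list chosen with earlier results of these data known. Of 17 listed, 13 were tested, and 10 fell and 2 rose in each KO comparison (10 and 3, then 11 and 2, without LM9 replicate 1), with medians of −7.39 and −8.09. With unscaled library totals 9 fell in each, as Cd24a, at −0.26 and −0.43, was then −0.04 and −0.07 and not called. Of all genes 38.1% and 38.0% fell. Cldn3, Cldn4 and Cdh1 had at most 2 counts in any KO-labelled library, so a fall was the only call open to them. For Kit, at 0 in the parental libraries, only a rise was open. The summed level of the 13 markers was 6345 to 6641 CPM in LM1, 6545 to 6866 in LM9 and 211 to 220 in KO-labelled libraries. Lcn2, the gene of the secreted protein lipocalin 2, made up most of it, at 4419.7 ± 90.98 CPM in LM1 and 1.93 ± 0.299 in LM1 Nfib KO libraries. The tight junction gene Cldn3 had 911 to 3362 counts in parental libraries and 0 in all KO-labelled ones, at least 439-fold and 1279-fold lower. Kit, a receptor of luminal progenitors, and Esr1, the oestrogen receptor, rose instead: Kit from 0 in all parental libraries to 279 to 303 counts, at least 73.4-fold and 65.1-fold higher, and Esr1 by 1.43 and 2.48 on the log2 scale.

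Basal markers other than keratins were called in both directions, as genes were in general. Of 15 listed, 10 were tested, and 6 rose and 4 fell in each KO comparison. Of all genes 43.1% and 44.3% were called higher and 38.1% and 38.0% lower. The summed level of these markers was 1360 to 1736 CPM in parental and 1489 to 1534 CPM in KO-labelled libraries. Itgb4, the hemidesmosomal integrin subunit, fell by 5.92 and 6.31 on the log2 scale, and Lamb3, a laminin chain it binds as part of laminin 332, by 4.36 and 5.19. Col17a1, a hemidesmosomal collagen, rose by 4.32 and 4.19, and the laminin chain Lama3 by 4.93 and 2.53, the latter 1.31 without LM9 replicate 1.

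Markers of other cell types also differed between the groups, as most genes did. Of all genes 43.1% and 44.3% were called higher and 38.1% and 38.0% lower in the LM1 and LM9 pairs. Of the fibroblast markers 6 rose and 2 fell of 8 in the LM1 pair, and 6 rose and 0 fell in the LM9 pair (7 and 1 without LM9 replicate 1), with a summed level of 174 to 518 CPM in parental and 1312 to 1403 CPM in KO-labelled libraries. Col1a1 went from 6.10 ± 0.182 to 958 ± 21.6 CPM in the LM1 pair. Postn and Dcn, the genes of the matrix proteins periostin and decorin, went the other way there, from 193 ± 11.7 to 1.86 ± 0.111 CPM and from 90.7 ± 4.57 to 11.5 ± 0.536 CPM. In the LM9 pair neither was called, at −0.36 for Postn (0.20 with unscaled library totals) and −1.18 for Dcn, and without LM9 replicate 1 they were 3.13 and −0.32, both called. The 5 endothelial markers tested, of 8 listed, summed to 90.3 to 170 CPM in parental and 384 to 394 CPM in KO-labelled libraries. In each comparison 3 rose and 1, Flt1, fell. Kdr stood at 282 ± 2.23 CPM in LM1 Nfib KO libraries. Cdh5 had 0 to 1 counts in parental libraries and 2616 to 2867 in KO-labelled ones, and only a rise could be called. Pecam1, a defining marker near 0, had only 5 to 33 counts anywhere and was not called (−0.92 in the LM9 pair, but −1.89 and called without LM9 replicate 1). Of 10 immune markers 2 were tested: Cd68 fell by 2.19 and 2.40, and Csf1r had 0 to 1 counts in parental and 446 to 514 in KO-labelled libraries. The part that any of these cell types had in the keratin results was not tested.

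Genes beside the keratin loci were read for changes along the chromosome. Within 250 kb of a member, 20 other protein-coding genes were tested: 8 rose and 8 fell in the LM1 pair, and 7 rose and 10 fell in the LM9 pair, with medians of 0.16 and −0.51. Of the 20, 4 and 3 were not called, and the share called was near the 81.2% and 82.3% of all genes, so these counts show nothing particular to the keratin loci. With unscaled library totals the pairs had 10 and 8, then 8 and 9. Without LM9 replicate 1 the LM1 pair had 10 rises and 9 falls, and the LM9 pair had 6 and 12, with a median of −1.08. Around Krt8 and Krt18, 5 of 10 rose and 3 fell in the LM1 pair, and 4 rose and 3 fell in the LM9 pair (6 and 3, then 4 and 5, without LM9 replicate 1). The nearest, Eif4b, a translation initiation factor 41746 bases from Krt18, fell by 1.15 and 1.36, and Tns2 and Spryd3, the next 2, rose by 0.46 and 0.62 and by 0.84 and 0.96. Igfbp6, an IGF-binding protein, fell by 3.90 and 4.46, Zfp740 fell by 1.16 and 1.18, and Mfsd5 rose by 3.35 and 2.91. The other neighbours there at a group mean of 10 CPM or more differed less evenly. Csad differed by 0.07 and 0.05 and was called in neither pair, although unscaled library totals gave 0.29 and 0.41, both called. Rarg, a retinoic acid receptor, rose by 0.53 in the LM1 pair and was −0.16 in the LM9 pair, where it was 0.19 with unscaled library totals and −0.47 and called without LM9 replicate 1. Itgb7 was 1.80 and −0.40, called in neither. Unscaled library totals gave 2.02 for the first, called, and both were called without LM9 replicate 1, the second at −1.59.

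Near Krt7 the 4 neighbours gave 3 falls in the LM1 pair and 4 in the LM9 pair: Nr4a1, an orphan nuclear receptor, at −3.04 and −4.54 (−5.25 without LM9 replicate 1), Acvr1b, an activin receptor, at −3.45 and −2.80, and Grasp at −0.80 and −1.06. Atg101, an autophagy gene, was −0.26 in the LM1 pair (limma-voom adjusted p = 0.372, but called without LM9 replicate 1) and fell by 1.04 in the LM9 pair. Near Krt14 and Krt19, Hap1 fell from 44.1 ± 1.38 to 0.683 ± 0.103 CPM in the LM1 pair and from 38.0 ± 7.70 to 0.740 ± 0.174 CPM in the LM9 pair, Jup is the linker described above, and Fkbp10, a collagen chaperone, rose by 7.80 and 9.41 (10.29 without LM9 replicate 1). Nt5c3b rose by 0.55 and 0.28, the second 0.11 and not called without LM9 replicate 1. The initiation factor Eif1 was 0.24 in the LM1 pair (limma-voom adjusted p = 0.388) and fell by 0.62 in the LM9 pair (adjusted p = 0.0355). Unscaled library totals gave −0.26 for the second, not called, and without LM9 replicate 1 both were called, at 0.24 and −1.02.

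Protein-coding genes with a mean level of at least 10 CPM were ranked by Pearson correlation of log2 CPM with each keratin over the 12 libraries, among 9295 genes. The libraries fall into parental and KO-labelled blocks, which these correlations share, so they are a description only. Closest to Krt7 were Cks1b (r = 0.999), Fzd7 (0.998) and Sox9 (0.998), and closest to Krt8 were Rgcc (0.999), Kcnk1 (0.998) and Rab20 (0.998). Krt18 was most like Ocln, the tight junction gene of occludin (0.998), Phldb3 (0.998) and Tslp (0.997). Krt19 was most like Rps6, Sdc1 and Rps20 (0.999 each), and Krt14 like Cenpn (0.994), E2f3 (0.993) and Aven (0.991).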

How the data were processed

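RNA-seq libraries of 12 tumoursphere samples were compared, 3 per group. The authors aligned reads to mm10 with STAR and counted read 5′ ends over each gene's exon union with QuasR, and the deposited values are raw counts per gene, with no replicates pooled. Versions for these steps are not given in the sources used here. Of 18278 listed identifiers 18268 matched GENCODE M21, which gave names, positions and exon lengths. Listed genes had a third-highest count of at least 8. Counts were scaled by TMM, filtered with filterByExpr (count minimum 10, 18176 genes kept) and tested with limma-voom (limma 3.58.1, edgeR 4.0.16, R 4.3.3), with 1 mean per group, all libraries sharing 1 estimate of the spread, and an adjusted p under 0.05 called. Log2 differences carry voom's offset of 0.5. Counting ratios have exact binomial 95% intervals. Ratios within libraries were compared by exact permutation. The fit was checked on simulated counts. The 5 keratins and all gene lists were chosen with earlier results of these data known. Named genes were the 5 keratins, Nfib, keratins at a group mean of 1 CPM or more, up to 2 rises and 2 falls per list (by the mean of both KO differences, among genes called alike in both), neighbours at 10 CPM or more, the 3 genes most like each keratin, and defining markers near 0. Other named genes (Krt8-ps, Krt17, Krt32, Krt6b, Krt90, Ina, Iffo2, Des, Vim, Snai1, Zeb2, Grhl1, Grhl2, Grhl3, Trp63, Cd24a, Cldn4, Cdh1, Postn and Dcn) were added after their values were seen. DESeq2 1.42.0, edgeR, other scalings, filters and weights, a replicate block and leaving out each library were tried. Replicate numbers did not pair the libraries: same-numbered deviations correlated at −0.05 to 0.03.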

Additional observations from a re-analysis of the deposited data

How the results depend on the processing

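Under each alternative that kept the gene, all 5 keratins were called in the same direction in both KO comparisons, with edgeR, DESeq2, median-ratio factors, unscaled library totals, no filter, quality weights, the compared groups alone, an absolute log2 difference above 1, or any 1 library left out. With a minimum mean of 5 CPM Krt14 was not tested. The comparison of LM1 with LM9 depended on the setting: 0 keratins were called in the reported fit, 4 by DESeq2, 3 with unscaled library totals, 3 with a minimum mean of 5 CPM, 4 with quality weights, and 0 to 5 when 1 library was left out, the 5 without LM9 replicate 1. Over all genes DESeq2 called 6159 there, unscaled library totals 5226, the minimum of 5 CPM 4670, quality weights 11596 and the fit without LM9 replicate 1 11995, against 1 in the reported fit and 0 with the replicate block. For the difference of the KO effects these counts were 78 by DESeq2, 10557 with quality weights and 10444 without LM9 replicate 1, against 0. The difference of the KO effects was called for 0 keratins in the reported fit, 2 with quality weights (Krt7 and Krt19) and 0 to 3 when 1 library was left out, the 3 without LM9 replicate 1. Fitting the replicate number as a replicate block gave 5 of 5 in both KO comparisons and 0 in the others, so the block changed no count. The cause of the other shifts was not tested. Among the gene lists, checked with other scalings after seeing the data, unscaled library totals turned the sign of 3 medians in the LM9 pair, those of the turnover genes and of the neighbours at the Krt8 and Krt18 locus and at the Krt14 and Krt19 locus. Krt8, Krt18 and Krt14 have single-digit counts in 1 arm, so their fold changes are imprecise, and the counting intervals given leave out the spread between libraries.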
